A study of Mus musculus with 4 samples.

Results

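The cell cycle and replication genes examined here are 35 mouse genes chosen by symbol for their roles in cell division, not by any measured value. Earlier results of these data were known when the genes were chosen. Accessible chromatin was read from the ATAC-seq peak lists of 4 libraries. Peaks that overlapped by at least 1 bp were merged across libraries into 97394 regions, and a region was credited to a member when that member was the nearest protein-coding RefSeq gene (GRCm38) within 100 kb of the region's midpoint. This gave 164 regions at 34 of the 35 genes, of the 82780 regions credited to any of 21631 protein-coding genes. Of the 164 regions, 38 lay within 1 kb of either end of the gene (gene-end regions) and 126 lay farther away or deeper inside the gene (distal regions).

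ATAC-seq uses a transposase to cut and tag DNA where chromatin is open, and a peak marks a stretch with more cuts than its surroundings. The cells were CD4 T cells carrying the SMARTA T cell receptor transgene, which recognizes the GP61 peptide, taken from the tumor-draining lymph node of mice bearing B16-GP61 melanoma. Naive cells had been transferred after treatment of the hosts with cytoxan (cyclophosphamide), and nodes were sampled on day 11. TOX is a nuclear HMG-box protein with known roles in T cell development and in T cells under persistent stimulation. The WT group (2 libraries, WT-1 and WT-2) held TOX-sufficient cells that were CD4+, Ly5.1+ and Ly5.2+ and high for PD1, LAG3 and CD39. The KO group (2 libraries, KO-1 and KO-2) held TOX-deficient cells that were CD4+ and Ly5.1+ but negative for Ly5.2, and low for PD1, LAG3 and CD39. Genotype, congenic marker and activation gate therefore changed together and cannot be told apart in any comparison below. The labels state neither how TOX was deleted nor whether replicate libraries came from separate mice.

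The cell cycle is driven by cyclins that activate cyclin-dependent kinases. D-type cyclins with Cdk4 or Cdk6 and cyclin E with Cdk2 release E2F factors from the retinoblastoma protein, and E2F factors then switch on genes for DNA replication and nucleotide synthesis. Cyclin A and cyclin B with Cdk1 drive later phases, when genes for chromosome segregation and cell division are transcribed through promoters that often carry CHR elements and CCAAT boxes. Naive CD4 T cells are quiescent and divide rapidly after antigen recognition, so these genes are widely used as markers of T cell expansion.

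The lists held 56852 and 61489 peaks in the WT libraries and 43078 and 61773 in the KO libraries, so KO-1 was the shortest list. Depth in reads was not given in the sources used here. Markers of other cells differed between the groups. Of 128 regions at 12 B cell genes, 97 and 106 had a peak in the WT libraries but only 11 and 19 in the KO libraries, and neither Ms4a1 nor Fcer2a had a peak in a KO library. Of 79 regions at 12 myeloid and dendritic cell genes, 61 and 62 had a peak in the WT libraries, against 21 and 33 in the KO libraries. Of 123 regions at 12 T cell genes, 70 and 71 had a peak in the WT libraries and 69 and 97 in the KO libraries. Cd4 had 1 and 2 peaks in WT and 1 and 3 in KO. The 29 regions at 5 CD8 T cell and NK cell genes had 17 and 18 peaks in WT and 11 and 22 in KO, and the 21 at 7 melanocyte genes had 8 and 8 in WT and 8 and 16 in KO, with no region at Dct or Sox10. Fewer cells of a type and less signal per cell cannot be told apart in such bulk libraries, and the part of these other cells in the results below was not tested. At Tox itself, the 2 gene-end regions had 2 and 1 peaks in the WT libraries and 0 in each KO library, although regions inside the gene kept 27 and 38 peaks in KO-1 and KO-2, against 28 and 27 in WT-1 and WT-2.

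Nearly all members were open at a gene end in all 4 libraries. A gene-end region with a peak in every library was found at 32 of the 35 genes (91.4%), against 9533 of all 21631 protein-coding genes (44.1%) and 57.8% of the genes that had any region. The 3 exceptions were Foxm1, Cdkn1a and Rrm2. Foxm1, a transcription factor of the G2 and M phases, had no region of its own because the region over its end was credited to the neighbouring gene Rhno1; that region had a peak in every library, and counting it raised the number to 33. At Cdkn1a, which encodes a CDK inhibitor induced by p53, the nearest region lay 2576 bp from an end. Rrm2, the small subunit of ribonucleotide reductase, had a single region, chr12:24741667-24741816, 27521 bp from the gene, with a peak only in WT-1 at a fold enrichment of 2.60.

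Most annotated start sites of the members were open, and their peaks sat close to these annotated transcription start sites. The RefSeq promoter table (GRCm38.p6) held 35 entries for 30 members and none for Aurkb, Mcm4, Ccna2, Foxm1 and Ccnd2. Of the 35 start sites, 33 lay in a region with a peak in every library, against 11494 of all 32851 entries, and the exceptions were the Rrm2 start and the first Cdkn1a start. These 33 start sites lay in 31 regions, since Cdkn2c and Mcm7 each have 2 start sites in 1 region, and 4 of them lay in regions counted as distal (Cdk6 and the second starts of Ccnd3, Cdkn1a and E2f2). The strongest summits lay a median of 62.5 bp upstream of these start sites (offset −62.5 bp), and 112 of 132 summits (84.8%) lay within 250 bp. At a given start site the 4 libraries placed their summits within a median of 23 bp of each other.

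Short strings resembling known cell cycle promoter elements were searched on both strands in the 250 bases before each start. The E2F-like strings were TTTGGCGC, TTTCCCGC, TTTCGCGC and TTTGCCGC, the CHR-like strings were TTTGAA and TTTAAA, and the third was CCAAT. An E2F-like string was present in 6 of the 35 member entries (17.1%), against 1.86% of all 32851 entries and 3.78% of the 11494 entries whose start lay in a region of every library. A CHR-like string together with CCAAT was present in 11 of 35 (31.4%), against 8.78% and 5.79%. Among the 10 entries of the mitotic genes and of Ccnb1, Ccnb2 and Cdk1, 7 (70.0%) held both a CHR-like string and CCAAT. The only 1 with an E2F-like string was Cdk1. Among the 10 entries of the replication genes, 3 held an E2F-like string and 9 held CCAAT, which was present in 24 of the 35 member entries (68.6%), in 33.8% of all entries and in 35.6% of those open in every library. The upstream stretches below, from RefSeq, are those of the replication genes Mcm5 and Mcm6 and of the mitotic genes Mki67, Top2a and Cdc20, whose open start sites hold these strings. They are written 5′ to 3′ on the gene's strand, with matches in capitals and overlapping matches merged into 1 run. The Mcm5 stretch is chr8:75109331-75109392 (plus strand), Mcm6 is chr1:128359720-128359840 (minus), Mki67 is chr7:135716451-135716592 (minus), Top2a is chr11:99024200-99024389 (minus) and Cdc20 is chr4:118437344-118437421 (minus).
Mcm5: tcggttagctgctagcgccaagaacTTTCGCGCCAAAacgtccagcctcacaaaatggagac
Mcm6: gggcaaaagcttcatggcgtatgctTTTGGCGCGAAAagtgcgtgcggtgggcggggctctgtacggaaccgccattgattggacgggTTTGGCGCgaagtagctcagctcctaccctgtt
Mki67: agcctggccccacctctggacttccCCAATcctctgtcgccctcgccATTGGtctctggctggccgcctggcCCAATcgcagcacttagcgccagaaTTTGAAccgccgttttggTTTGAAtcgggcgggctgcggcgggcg
Top2a: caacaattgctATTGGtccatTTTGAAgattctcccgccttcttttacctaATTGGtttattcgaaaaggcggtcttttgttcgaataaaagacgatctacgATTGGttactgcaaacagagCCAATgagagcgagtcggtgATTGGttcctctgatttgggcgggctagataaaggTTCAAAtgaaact
Cdc20: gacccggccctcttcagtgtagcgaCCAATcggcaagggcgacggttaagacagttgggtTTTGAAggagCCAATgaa
The capitals in Mcm5 and Mcm6 mark E2F-like strings only, and those in the other 3 mark CHR-like strings and CCAAT boxes, some of them as their reverse complement because they lie on the opposite strand. Such matches describe the letters only and do not show that a factor was bound.

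Peak strength was compared through a percentile. For each region with a peak in every library (26867 regions, 77 of them at members), the strongest −log10 q that the authors deposited for the region was ranked within its library, with 100% for the strongest region. A region was called WT higher when both WT percentiles exceeded both KO percentiles, KO higher in the reverse case, and overlapping otherwise. With 2 libraries against 2, an exact two-sided permutation test cannot give a p below 0.33, so the values are descriptions and no p is given. The 33 shared gene-end regions of members had a median mean percentile of 84.1%, against 76.0% over the 10242 shared gene-end regions of all genes, at similar median widths of 1143 and 1126 bp. Their median was 82.9% and 84.5% in the WT libraries and 84.8% and 83.8% in the KO libraries. The group means were 83.7% ± 1.13 (SD, n = 2) for WT and 84.3% ± 0.734 (SD, n = 2) for KO, a WT minus KO difference of −0.590 points, which is smaller than the spread between WT libraries. It took the other sign when only peaks with a −log10 q of at least 5 (0.132) or 10 (1.38), or the 20000 strongest peaks of each library (1.51), were kept. Of the 33 regions, 7 were WT higher (21.2%), 6 were KO higher (18.2%) and 20 overlapped. Among shared gene-end regions of all genes, 26.3% were WT higher and 14.3% were KO higher.

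The replication and nucleotide genes had some of the strongest gene-end regions. Mcm2 to Mcm7 encode the subunits of the replicative helicase, Pcna the sliding clamp of the DNA polymerases, Rrm1 the large subunit of ribonucleotide reductase and Tyms thymidylate synthase. Mcm4 stood at 97.7% and 97.9% in the WT libraries and at 98.9% and 98.4% in the KO libraries, which is the order (WT-1, WT-2, then KO-1, KO-2) used wherever 4 values follow each other below. Pcna stood at 97.3%, 97.6%, 96.9% and 96.8%. Mcm4 was KO higher and Pcna was WT higher, but the WT minus KO differences were only −0.832 and 0.594 percentile points. The other 7 shared gene-end regions of this group overlapped between WT and KO, with mean percentiles from 75.1% (Mcm2) to 90.5% (Mcm5) apart from Tyms. Tyms was far weaker, at 20.1%, 24.9%, 36.9% and 6.56%, so its spread within the KO pair exceeded the whole WT range.

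Among the G1 genes, the gene-end regions of cyclin E and of its kinase and phosphatase were strong and those of the D-type cyclins varied. Ccne1, which encodes cyclin E1, stood at 90.5%, 92.8%, 95.6% and 93.7% and was KO higher. Cdc25a, the phosphatase that activates Cdk2, had a mean percentile of 91.8%, Cdk4 one of 86.4% and Cdk2 one of 79.4%, and all 3 overlapped between the groups. Ccnd2, which encodes cyclin D2, had 2 adjacent shared gene-end regions that differed in opposite directions; which of them holds its start site was not determined. The region chr6:127152146-127152966 stood at 78.3%, 70.9%, 83.7% and 82.6%, KO higher. The region chr6:127151616-127152073 stood at 49.5%, 41.8%, 36.3% and 35.9%, WT higher.

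Ccnd3 (cyclin D3) and Cdk6 showed weak peaks at the outer gene end and stronger peaks at an inner start site. The outer Ccnd3 start stood at 36.5%, 44.6%, 57.3% and 51.9%, KO higher, with a difference of −14.0 points. Its second RefSeq start, 47593467 on chromosome 17, lay in chr17:47593095-47594085 at 75.6%, 82.4%, 78.8% and 75.1%, with overlapping groups. At Cdk6 the gene-end region chr5:3341133-3341816 was the weakest of the 33, at 13.9%, 13.6%, 13.3% and 6.20%. The annotated Cdk6 start site lay 2.42 kb downstream of that region's midpoint, inside chr5:3342119-3344857, which counted as distal and stood at 75.0%, 61.4%, 59.4% and 63.7%.

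The shared gene-end regions of the CDK inhibitors and of E2f1 were strong, and that of E2f2 was weak. Cdkn1b and Cdkn2c, which restrain Cdk2 and the Cdk4 and Cdk6 kinases respectively, had mean percentiles of 92.1% and 86.1% at their gene ends with overlapping groups. E2f1, an activator of S phase genes, stood at 90.8%, 97.0%, 94.4% and 91.1%. E2f2, a related activator, stood at 30.2%, 42.1%, 48.1% and 20.9% at its first start. The groups overlapped at both.

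Each gene of mitosis and the later cyclins with Cdk1 had a gene-end region open in every library. Of 8 such regions at the mitotic genes, 3 were WT higher and 1 was KO higher. Of 4 at the later cyclins with Cdk1, 1 was WT higher and 1 was KO higher. Among shared gene-end regions of all genes, 26.3% were WT higher and 14.3% were KO higher. Ccna2 (cyclin A2) stood at 98.3%, 96.6%, 92.9% and 96.4%, WT higher. Ccnb1 (cyclin B1) had a mean percentile of 80.1% and was KO higher (difference −3.78 points), while Ccnb2 and Cdk1 overlapped. Aurkb, the Aurora kinase of the chromosomal passenger complex, stood at 59.4%, 62.9%, 47.3% and 53.0%. Plk1, a kinase of mitotic entry and spindle assembly, stood at 67.4%, 64.3%, 60.0% and 53.3%. Both were WT higher, by 11.0 and 9.18 points, and they had the lowest mean percentiles of the mitotic genes. Aurka, the spindle pole Aurora kinase, was WT higher by 4.07 points, and Cdc20, the activator of the anaphase-promoting complex, was KO higher (difference −3.76 points). Bub1, Birc5, Top2a and Mki67, the gene of the proliferation marker Ki-67, overlapped, with mean percentiles from 78.5% to 86.9%.

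**Figure D1:**
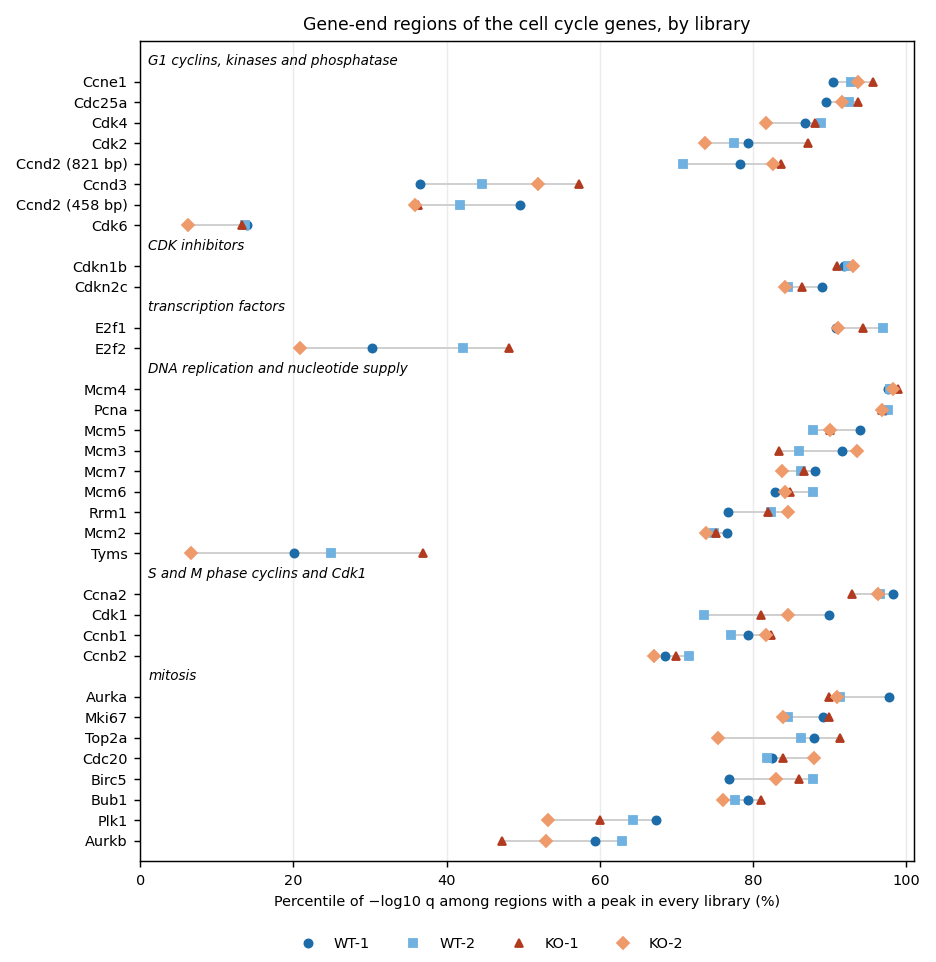
Percentile of −log10 q of each of the 33 gene-end regions with a peak in every library, for the 4 libraries, grouped by role; the 2 Ccnd2 regions are told apart by width, and grey lines join the lowest and highest library. Most regions sit above 70% in every library, while Cdk6, Tyms, E2f2, Ccnd3, the narrower Ccnd2 region, Aurkb, Plk1 and Ccnb2 reach below it.

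Gene-end regions were present in every library alike, and distal regions were not. Of the 38 gene-end regions, 36 (94.7%) had a peak in each of the 4 libraries taken singly, and 33 (86.8%) had one in all 4 at once, against 67.2% of gene-end regions of all genes. The single-library shares over all genes were 82.5% and 84.9% in WT and 73.9% and 80.6% in KO. Of the 126 distal regions, 83 (65.9%) and 76 (60.3%) had a peak in the WT libraries and 61 (48.4%) and 83 (65.9%) in the KO libraries, and 44 (34.9%) had one in all 4, against 23.4% of distal regions of all genes. The gene-end share exceeded the distal share by 28.9, 34.4, 46.3 and 28.9 points, WT libraries first. Over all protein-coding genes the same differences were 27.8, 24.2, 36.4 and 23.7 points. Distal regions were also weaker and narrower. Among member regions with a peak in every library, the median width was 746 bp for distal and 1143 bp for gene-end ones. Their median fold enrichments in WT-1 were 5.91 and 12.2. The part of peak strength in the gap between gene-end and distal shares was not tested. Distal regions of members had a peak in 63.1% ± 3.93 (SD, n = 2) of cases in WT and 57.1% ± 12.3 (SD, n = 2) in KO, a difference of 5.95 points that lies within the spread of the KO libraries. Without KO-1 the difference was −3.75 points, and among the 20000 strongest peaks of each library it was −13.6 points. The same difference over distal regions of all genes was 10.4 points.

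**Figure D2:**
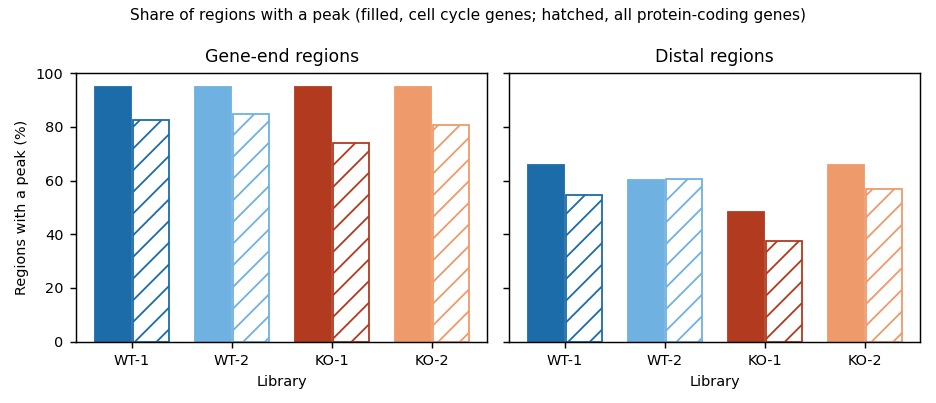
Share of regions (%) with a peak in each library, for gene-end regions on the left and distal regions on the right; filled bars are the cell cycle genes and hatched bars all protein-coding genes. The filled gene-end bars stand at 94.7% in each library, while the distal bars fall to 48.4% in KO-1.

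The distal regions were unevenly spread over the genes. Cdk6 had 28 regions of both kinds, Ccnd2 23, Ccnd3 15, Ccne1 15 and E2f2 13, so these 5 genes held 94 of the 164 regions (57.3%). In contrast 14 members had no distal region and 12 had a single region in all. The 10 replication genes together had 7 distal regions, against 79 at the 7 G1 genes. Regions of 1 gene share that gene and its surroundings, so the G1 counts below rest mainly on Cdk6, Ccnd2, Ccnd3 and Ccne1.

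Regions found in both libraries of a single genotype were all distal. Most such regions of all protein-coding genes were distal too, 7263 of 7988 in WT and 1435 of 1559 in KO. A peak in both WT libraries and neither KO library was found at 11 of the 164 regions (6.71%), against 8.80% of all regions. Restricted to distal regions the shares were 8.73% at members and 10.8% over all genes. A peak in both KO libraries and neither WT library was found at 1 region (0.610%, and 0.794% of distal regions), against 1.78% of all regions and 2.12% of distal regions of all genes. Shares at the members were thus close to or below the background in both directions. Both counts changed with list length and when a library was left out. Among the 20000 strongest peaks of each library they were 2 and 6. Leaving out a library loosens both definitions, since fewer libraries have to agree. With WT-1 or WT-2 left out, the WT-only counts were 20 and 27 and the KO-only counts 6 and 5. With KO-1 or KO-2 left out, the WT-only counts were 12 and 18 and the KO-only counts 22 and 9.

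The strongest WT-only region lay 84181 bp from Ccnd2, at chr6:127236369-127237020, with fold enrichments of 8.54 and 8.67. A second one at Ccnd2, chr6:127162624-127163201, had 5.81 and 4.96. The KO-only region was also at Ccnd2, at chr6:127154915-127155228, 2727 bp from the gene, with 3.05 and 3.24 in the KO libraries. Leaving out Ccnd2 left 9 WT-only and 0 KO-only regions.

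The other 9 WT-only regions were spread over 9 genes and were weaker. Inside Rrm1, chr7:102458667-102459137 had a fold enrichment of 5.20 and 3.25. Inside Mcm5, chr8:75119803-75120210 had 3.63 and 4.38, and 76419 bp from Mki67, chr7:135792869-135793183 had 3.97 and 2.83. The regions at Ccnd3 (chr17:47564642-47564962), Ccne1 (chr7:38090375-38090811), Cdc25a (chr9:109862988-109863173), Cdk6 (chr5:3431144-3431361), Cdkn1a (chr17:29079029-29079303) and Ccnb2 (chr9:70408868-70409121) ranged from 2.54 to 3.45. Their peaks were near the floor of the lists at Ccnb2 and Cdc25a, where −log10 q was 2.00 to 2.49 against a minimum of 2.00. For comparison, 63 of the 128 regions at B cell genes and 31 of the 79 at myeloid and dendritic cell genes were WT-only. The part of such cells in the WT-only regions of members was not tested.

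By rank, the members' shared regions split evenly. Of the 77 regions, 19 (24.7%) were WT higher, 19 (24.7%) were KO higher and 39 overlapped, against 25.8% WT higher and 24.3% KO higher over all 26867 shared regions. Among the 44 distal ones, 12 (27.3%) were WT higher and 13 (29.5%) were KO higher, against 25.9% and 29.8% of shared distal regions of all genes. At the G1 genes 5 were WT higher and 13 KO higher of 35, at the CDK inhibitors 4 and 1 of 10, at the transcription factors 2 and 1 of 7, at the replication genes 1 and 2 of 10, at the later cyclins with Cdk1 2 and 1 of 5, and at the mitotic genes 5 and 1 of 10. Cdk6 supplied 7 of the KO higher regions and 3 of the WT higher ones, and without it the counts were 12 and 16. With WT-1, WT-2, KO-1 or KO-2 left out in turn, which leaves fewer libraries to separate, 29, 35, 40 and 30 regions were WT higher and 26, 30, 29 and 27 were KO higher. At T cell genes, by comparison, 5 of 46 shared regions were WT higher and 26 were KO higher. The part of that shift in the ranks of single members was not tested.

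**Figure D3:**
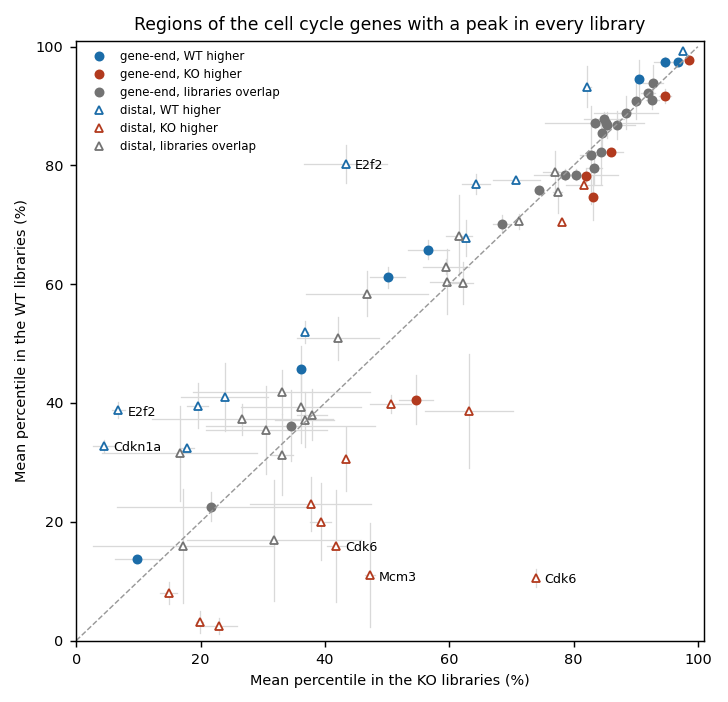
Mean percentile in the KO libraries (horizontal axis, %) against the WT libraries (vertical axis, %) for the 77 regions of the cell cycle genes with a peak in every library; filled circles are gene-end regions, open triangles distal ones, and grey bars span the 2 libraries of a group. Most gene-end regions lie near the dashed line of equal rank, and the labelled distal regions of E2f2, Cdkn1a, Cdk6 and Mcm3 lie farthest from it.

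The largest WT higher differences were at E2f2. The region chr4:136179926-136180885 stood at 83.5% and 77.0% in WT-1 and WT-2 but at 50.0% and 36.6% in KO-1 and KO-2, a difference of 36.9 points. Its fold enrichments were 10.4, 8.40, 4.73 and 6.10. This region covered the second annotated E2f2 start site, at 136180782, which lies 8.51 kb downstream of the first. The strongest summits lay upstream of that start, at −140 and −144 bp in the WT libraries and at −641 and −643 bp in the KO libraries, so the strongest point of the region differed in place as well as in rank. In KO-1 the stretch held 2 separate peaks, and the weaker one, with a fold enrichment of 3.31, had its summit at 136180640, between the WT summits at 136180638 and 136180642. A neighbouring intragenic region, chr4:136177636-136178362, stood at 37.4% and 40.1% in WT and at 5.75% and 7.79% in KO. The first start showed no such order, as given above, and a region farther into the gene, chr4:136189902-136190239, was KO higher (difference −14.7 points). When fold enrichment was ranked instead, the difference at chr4:136177636-136178362 shrank from 32.0 to 9.86 points. The 30 bases before each start are shown because the groups separated at the second start and overlapped at the first. They are chr4:136172244-136172273 for the first and chr4:136180752-136180781 for the second, both on the plus strand and from RefSeq. Matches to the strings given earlier are in capitals (a CCAAT in the first). These 30 bases are only the end of the longer stretch searched before each start. Over that longer stretch the first start had 1 CCAAT match and no CHR-like match. The second start had 3 CCAAT matches and 1 CHR-like match, which the bases shown do not include.
E2f2 first start: tatatatattgtagcagCCAATcgaggcgc
E2f2 second start: ttgaatggtgtggaacaggtgttaaatgct

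Cdkn1a also differed at its second start. Its first RefSeq start, at 29090979 on chromosome 17, lay in no region, whereas the second, at 29093769, lay in chr17:29093555-29094174. That region stood at 33.8% and 31.8% in WT-1 and WT-2 and at 2.62% and 6.26% in KO-1 and KO-2, a difference of 28.4 points, or 16.6 points when fold enrichment was ranked. Its fold enrichments were 4.14, 3.96, 2.38 and 3.39. The KO-1 peak was near the floor of its list, with a −log10 q of 2.45 against a minimum of 2.00. The next region of the gene, chr17:29094659-29095906, was much stronger and was WT higher by 6.74 points, while a region upstream, chr17:29081766-29082492, was KO higher (difference −10.8 points). The remaining large WT higher differences were near Cdk1 and Cdkn1b. The region chr10:69321157-69321658, 13488 bp from Cdk1, stood at 35.7%, 43.4%, 17.9% and 21.3%. The region chr6:134926781-134927767, 1256 bp from Cdkn1b, stood at 46.7%, 35.3%, 30.9% and 16.9%, a difference of 17.1 points that fell to 9.77 without KO-2 and to 7.52 when fold enrichment was ranked.

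The largest KO higher difference was inside Cdk6. The region chr5:3497474-3498265 stood at 12.1% and 9.08% in WT-1 and WT-2 and at 73.9% in both KO libraries, a difference of −63.3 points. Its fold enrichments were 2.72, 2.59, 6.27 and 9.29. It opened a run of 6 shared regions in the last part of the gene, spanning 19747 bp to chr5:3516577-3517220 and lying 154 to 173 kb downstream of the start site, and all 6 were KO higher, with a median difference of −19.9 points. This run was picked out after its values were seen, so its direction is a description. The other 7 shared regions of Cdk6 did not share it, with 3 WT higher, 1 KO higher and 3 overlapping. The start site region was in the overlapping group, and the region just before the run, chr5:3494052-3495159, was WT higher by 15.2 points. The KO higher region outside the run was chr5:3300806-3301675, 39329 bp from the gene, at 48.2%, 29.0%, 56.1% and 70.2%, a difference of −24.6 points, or −14.5 without WT-2. Within the run, chr5:3509390-3509877 stood at 25.4%, 6.55%, 40.3% and 43.2%, a difference of −25.8 points, or −15.95 without WT-2. When fold enrichment was ranked in place of −log10 q, the difference at chr5:3497474-3498265 was −56.3 points, while those at chr5:3509390-3509877 and chr5:3505408-3505698 shrank from −25.8 to −16.1 and from −20.5 to −7.41.

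**Figure D4:**
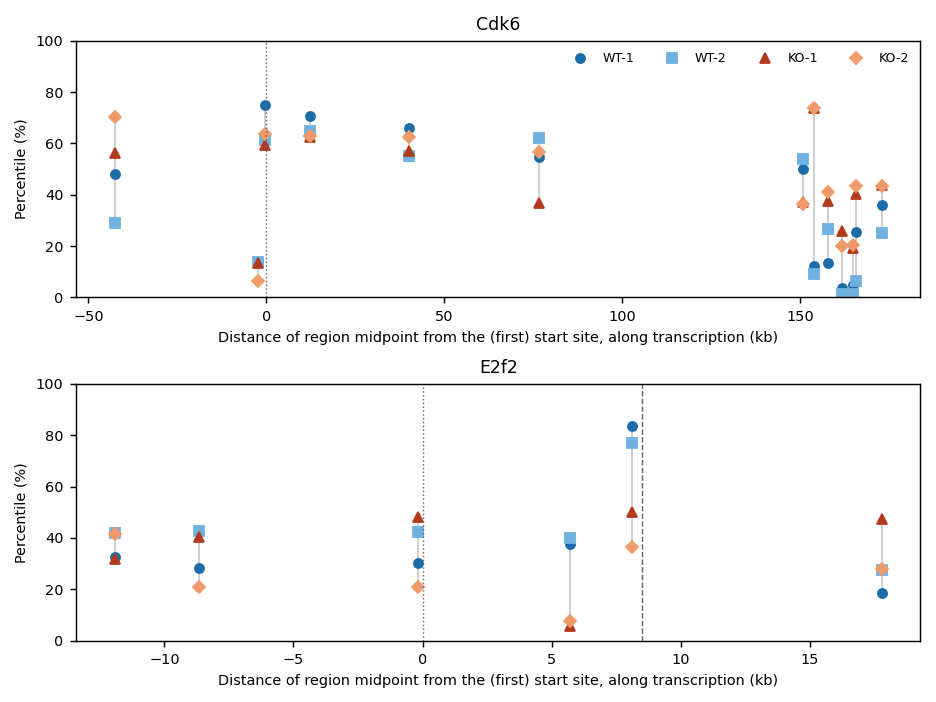
Percentile of −log10 q (%) of the shared regions of Cdk6 (top, 13 regions) and E2f2 (bottom, 6 regions) in the 4 libraries, against the distance of each region's midpoint from the start site in kb; dotted lines mark the start site, the dashed line the second E2f2 start. At Cdk6 the KO symbols lie above the WT symbols in the last 6 regions, and at E2f2 the WT symbols lie above the KO symbols at the second start and at the region before it.

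Mcm3 held the second largest KO higher difference among members. The region chr1:20825062-20825577 lay 4750 bp upstream of the start site of Mcm3, which is on the minus strand. It stood at 2.25% and 19.7% in WT-1 and WT-2 and at 46.5% and 48.0% in KO-1 and KO-2, a difference of −36.3 points. Its fold enrichments were 2.49, 3.72, 4.51 and 6.51. At the Mcm3 start site, by contrast, the percentiles of 91.6%, 86.1%, 83.4% and 93.6% overlapped.

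Another 80 genes of the same pathways, including other E2F factors, origin and polymerase subunits, spindle checkpoint genes, kinesins and condensins, were measured in the same way. Of these, 69 (86.2%) had a gene-end region with a peak in every library, and the median mean percentile of their shared gene-end regions was 86.7%. Of their 210 distal regions, 42 had a peak in every library, a smaller share than the 34.9% at the members and the 23.4% of all genes. The share of their distal regions with a peak was 60.5% in each WT library and 32.9% and 53.8% in the KO libraries. The WT minus KO difference was 17.1 points, against 10.4 points over all genes. Of all their 298 regions, 31 (10.4%) were WT-only and 4 (1.34%) were KO-only, against 8.80% and 1.78% of all regions. Of their 114 shared regions, 28 (24.6%) were WT higher and 23 (20.2%) KO higher. Over all shared regions these shares were 25.8% and 24.3%. Peaks were found at 206, 208, 143 and 193 of their regions, so KO-1 was again the lowest library.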

How the data were processed

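ATAC-seq peak lists were used from 2 WT and 2 KO libraries, 1 list per library. The submitters' processing notes name BWA, SAMtools, Picard, MACS2 and deepTools and the builds GRCm38 and mm10; they give no version or setting and no sequence of steps. The lists follow the narrowPeak layout. For each peak the authors deposited a fold enrichment (a ratio over the caller's background), a −log10 p, a −log10 q and a summit offset, all of which describe that peak in its own list, and a score that was not used. All deposited −log10 q values were at least 2.00, and 2.65% to 3.59% of peak numbers were missing from each list, for reasons not stated. No read counts were used, so depth is unknown and weak peaks can be missing from shorter lists.

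Peaks were merged, credited to the nearest gene, classified and ranked as described above, with Python 3.11, pandas 2.3.3 and numpy 2.4.6; the procedure was tested on simulated data. Percentiles rank the same shared regions in every library, but list length still shapes which regions are shared. Members, gene lists and measures were chosen with earlier results of these data known. Genes named with values were those with regions of a single genotype, the 5 with most regions, the 5 strongest and 5 weakest shared gene-end regions, the 5 largest rank differences in each direction, and members lacking a gene-end region in every library. Other regions named for context, and the run at Cdk6, were chosen after their values were seen. Replicate numbers were not treated as pairs. Alternatives covered peak strength, list length, overlap, gene assignment, gene-end window, ranked measure and each library left out.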

Additional observations from a re-analysis of the deposited data

How the results depend on the processing

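The presence of gene-end regions held throughout: 32 genes had one in every library, with 28 to 33 over the alternatives, and 33 such regions, with 29 to 36. Counts of genotype-specific regions moved. With a −log10 q of at least 5 or 10, or with the 20000 strongest peaks, WT-only regions numbered 5, 6 and 2 and KO-only regions 4, 3 and 6. Joining peaks by summit windows gave 4 KO-only regions, and leaving out Ccnd2, added after seeing the data, gave 0. The gene-end minus distal share, 34.6 points on average, was 23.1, 22.7 and 24.4 points with those 3 limits and 23.1 with summit windows. The distal WT minus KO share of 5.95 points became −13.6 with the 20000 strongest peaks. WT higher and KO higher regions numbered 11 and 9 at a −log10 q of at least 10, and KO higher regions numbered 8 among the 20000 strongest peaks and 12 without Cdk6, also added later. The WT minus KO median gene-end rank of −0.590 was 1.38 at a −log10 q of at least 10, 1.51 with the 20000 strongest peaks and −1.74 with a 2 kb gene-end window. Leaving out each library in turn gave 12 to 27 WT-only regions, 5 to 22 KO-only regions, a gene-end minus distal share of 23.5 to 31.5 points, a distal share difference of −3.75 to 17.3 points, 29 to 40 WT higher regions, 26 to 30 KO higher regions and a median rank difference of −1.23 to −0.233; with 1 library left in a group, fewer libraries have to agree. The cause of the other changes was not tested. The 10 named rank differences could not be computed under every alternative. Under the strength limits, which remove peaks, 6 remained at a −log10 q of at least 5, 2 at 10 (Cdk6 chr5:3300806-3301675 and E2f2 chr4:136179926-136180885) and 1, the E2f2 region, among the 20000 strongest peaks. The 104 values that could be computed kept their sign, and 93 of them moved by less than 1 SD. With 2 libraries a group this limit is loose and does not mean little change. Within it, ranking fold enrichment moved Cdkn1b chr6:134926781-134927767 from 17.1 to 7.52 points and Cdk6 chr5:3509390-3509877 from −25.8 to −16.1. That the signs were kept was largely fixed in advance. The gene assignment limit and the gene-end windows do not alter the ranks. The regions were picked as the largest differences without overlap, so leaving out a library could hardly reverse a sign. The labels name no shared source for same-numbered libraries, and with 2 libraries a group their deviations give a single correlation, −0.103, so the numbers were not treated as pairs. A replicate block, WT-1 against KO-1 and WT-2 against KO-2, gave 25 WT higher and 21 KO higher regions and a distal share difference of 5.95 points (17.5 and −5.56 in the 2 pairs). The crossed pairing, added after seeing the data, gave 26 and 21.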
